A study of Mus musculus with 2 samples.

Results

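T cells made up 125 of the 4502 cells kept from 2 single-cell RNA-seq libraries. They were 27 of 1207 cells from intact bone and muscle and 98 of 3295 cells from fracture callus. UMIs, the molecular barcodes that each count 1 captured transcript, were the measure, and kept cells had 500 genes or more and no more than 10% of UMIs from mitochondrial genes. A kept cell was called a T cell when it held at least 2 UMIs of *Cd3e*, *Cd3d* and *Cd3g* together, at least 1 UMI of *Trac*, *Trbc1* and *Trbc2* together, and no UMI of the B cell gene *Cd79a*. Members were thus chosen by the measured UMI counts of these 7 genes, whose values below are descriptions with no test.

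T cells recognize antigen through a receptor built either of an alpha and a beta chain or of a gamma and a delta chain, and the CD3 proteins carry its signal into the cell. CD4 marks helper and regulatory T cells and CD8 marks cytotoxic T cells. In bone, T cells are known as sources of RANKL, TNF and interferon gamma, which act on osteoclasts and bone-forming cells.

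Both groups came from male littermates of the genotype Clec3b.creERT2; Ai14.R26.tdTomato, which were given tamoxifen 2 weeks before a stabilized fracture of the right femur at 6 weeks of age. The intact group was the uninjured femoral shaft with its muscle and the callus group was the fracture site, both taken 3 weeks after surgery, and cells sorted for tdTomato were loaded on the 10x 3′ platform. Tissue of 3 mice was pooled for each group, which gave 1 library per group. No test between intact and callus was therefore possible and mice could not be told apart. Every interval below is an exact 95% interval that covers counting error only, and shares are shares of sorted cells. The Cre that switches on tdTomato is expressed from *Clec3b*, and T cells held 0 *Clec3b* UMIs in intact tissue and 1 in callus. Whether these T cells carried tdTomato transcripts was not tested. For hematopoietic populations among the sorted cells, the paper reports no meaningful tdTomato expression. It reads those populations as artifacts of flow cytometry and left them out of its clusters. Shares of T, B and NK cells below therefore describe the sorted libraries and were not taken as shares of the tissue or of the *Clec3b* lineage.

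T cells were 2.24% of kept cells in intact tissue (1.48 to 3.24%) and 2.97% in callus (2.42 to 3.61%). B cells, taken as cells with at least 2 UMIs of *Cd79a* and *Cd79b* and no CD3 UMI, were 23.3% and 22.2%. NK cells, taken as cells with at least 2 UMIs of *Ncr1*, *Klrb1c*, *Klre1* and *Klrk1* and no UMI of CD3 genes or *Cd79a*, were 0.994% (0.515 to 1.73%) and 2.91% (2.37 to 3.55%). The interval of the T cell share thus overlapped between the libraries and that of the NK cell share did not. T cells held 139732 UMIs in intact tissue, with a median of 4697 UMIs and 1754 genes per cell. In callus they held 648311 UMIs, with a median of 5563 UMIs and 1932.5 genes. The libraries shared 1 cell barcode, which was not that of a T cell.

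The genes of the rule were found in most members. *Cd3e*, a signalling chain of the receptor complex, was at 444 CPM in intact (340.2 to 569) and 358 CPM in callus T cells (313 to 407), CPM being UMIs per 1000000 UMIs of the summed cells. *Cd3d* was at 952 and 827 CPM and *Cd3g* at 887 and 873 CPM. *Trac*, the constant part of the alpha chain, was found in 22 of 27 and 73 of 98 cells, at 472 and 486 CPM. *Trbc1* was at 608 and 924 CPM and *Trbc2* at 1459.9 and 1365 CPM.

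Few cells lay close to the limits of the rule. 1 intact and 3 callus T cells held exactly 2 CD3 UMIs, and 1 callus T cell held a single receptor UMI. Of those with 2 CD3 UMIs, 0 intact and 2 callus cells carried at least 2 UMIs of the NK genes. With 3 CD3 UMIs, 1 of 3 intact and 2 of 4 callus T cells did. Just outside, 1 intact and 9 callus cells held 1 CD3 UMI with a receptor UMI, and 8 of these 9 callus cells carried at least 2 UMIs of the NK genes. A further 5 intact and 14 callus cells held at least 2 CD3 UMIs and no receptor UMI. Those cells had a median of 2 UMIs of the T cell receptor signalling list and no *Trdc* UMI. *Cd79a* kept out 1 further cell in each library.

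For the summed cells, the label T cell was borne out by genes that the rule did not use. Some members near the CD3 limit carried NK genes, as given above. *Lck*, the kinase that starts receptor signalling, was found in 22 of 27 intact and 82 of 98 callus T cells. Its summed level was 308 CPM in intact tissue (223 to 415) and 355 CPM in callus (310.4 to 404). *Bcl11b*, a transcription factor that fixes T cell identity, was at 358 CPM in intact (266 to 472) and 264 CPM in callus (226 to 306) T cells. NK cells held no *Bcl11b* UMI in intact tissue, which allows up to 53.6 CPM, and 5.04 CPM in callus (1.37 to 12.9). *Cd5* and *Themis*, which tune receptor signalling, and *Ccr7*, the receptor that guides cells to lymph nodes, were also at 0 UMIs in intact NK cells. In callus NK cells *Cd5* and *Themis* stayed at 0 UMIs and *Ccr7* was at 8.82 CPM. All 27 and all 98 T cells carried at least 1 UMI of the 15 receptor signalling genes. So did 5 of 5 intact and 13 of 14 callus cells with at least 2 CD3 UMIs and no receptor UMI. Carrying 1 such UMI thus does not set T cells apart. The summed level of the 15 genes was 3578 CPM in intact and 3506 CPM in callus T cells, against 2484 and 1680.1 CPM in NK cells and 839.9 and 541 CPM in B cells.

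**Figure D1:**
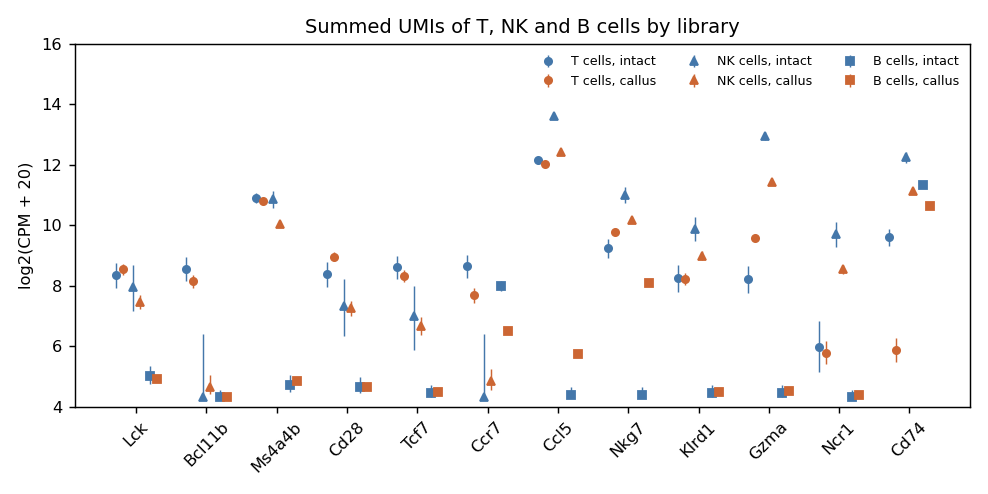
Summed level of 12 genes in T, NK and B cells (circles, triangles, squares) of the intact (blue) and callus (orange) library, as log2 of CPM plus 20, with exact Poisson 95% intervals from counting error alone. Within each library *Lck*, *Bcl11b*, *Tcf7* and *Cd28* were highest in T cells, though the intact *Lck* intervals of T and NK cells overlap. *Ccl5*, *Nkg7*, *Gzma* and *Ncr1* were highest in NK cells, and *Ncr1* was part of the NK cell definition.

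Against all other kept cells, T cells held more receptor signalling transcripts in both libraries, at the 3578 and 3506 CPM given above against 290.0 and 341 CPM in the other cells. The 10 cytotoxic granule genes were at 1396 and 2221 CPM in T cells against 124 and 381 CPM. Of 3663 genes with at least 30 UMIs in T cells, 295 were at least 2-fold higher in T cells in both libraries (8.05%) and 78 at least 2-fold lower (2.13%). Ratios were taken on CPM plus 20, so they understate the change of low genes. Genes entered by their UMIs in T cells, which favors genes that are high there, so these counts are a description.

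The gene with the largest ratio held in both libraries was *Ms4a4b*, which encodes a T cell membrane protein. It was at 1896 CPM in intact and 1766 CPM in callus T cells, against 20.1 and 34.3 CPM in other cells (log2 ratios 5.58 and 5.04). NK cells carried it too, at 1859 and 1037 CPM. *Ccl5*, a chemokine of effector lymphocytes, followed with log2 ratios of 5.24 and 4.61, and *Gimap3*, a GTPase of lymphocyte survival, with 4.16 and 4.07. Receptor pathway genes followed, among them the kinase *Txk* (4.77 and 3.98) and the adaptors *Skap1* (3.96 and 3.94) and *Lat* (3.56 and 3.14). The costimulatory receptors *Cd28* (3.86 and 4.22) and *Icos* (3.19 and 3.49), the inhibitory receptor *Ctla4* (279 and 265 CPM) and the cytokine receptor chain *Il2rb* (3.23 and 3.51) were in the same group. So were the transcription factors *Tcf7* (4.19 and 3.68) and *Ikzf2* (3.71 and 3.38) and the survival gene *Bcl2* (3.20 and 3.26). The 20 leading genes also held *Cd8b1*, *Bcl11b*, *Lck*, *Gimap4*, *Ptpn22* and *Ctsw*. Of the listed genes, those at least 2-fold lower in T cells were globins, muscle and neutrophil genes together with *Fcer1g*, *Tyrobp*, *Jun*, *Egr1* and *Zfp36*.

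The beta chain genes *Trbc1* and *Trbc2* lie next to each other on the forward strand of chromosome 6, at chr6:41538218-41539881 and chr6:41546730-41548352 (GRCm38). A beta chain uses one or the other constant gene. Their coding parts are alike in 95.6% of 518 aligned bases. The first coding exon differs at 1 of 375 bases and the later coding exons at 22 of 143. Below is the 30-base stretch of coding exon 3 with the most differences (GENCODE M21 transcripts, 5′ to 3′, chr6:41539295-41539324 and chr6:41547838-41547867, forward strand), shown because a read can be assigned to one gene only where they differ. Capitals mark the 6 bases that differ.
Trbc1: tGtatgctgtgctTgtcagtACActggtgG
Trbc2: tAtatgctgtgctGgtcagtGGCctggtgC

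Of the 30-base words of the *Trbc1* coding part, 323 of 489 also occur in the *Trbc2* transcript, while of the 187 words of its 3′ UTR 0 do. *Trbc2* gave more UMIs than *Trbc1* in both libraries, 204 against 85 in intact and 885 against 599 in callus T cells. *Trbc2* alone was found in 11 intact and 29 callus T cells, *Trbc1* alone in 2 and 6, and both in 14 and 63. Among cells with at least 5 beta chain UMIs, *Trbc1* gave from 10 to 90% of them in 11 of 21 intact and 55 of 82 callus cells. How far reads were assigned to the wrong copy in such cells was not tested. Variable segments were seldom caught by this 3′ assay, with an alpha chain V segment in 12 of 27 and 30 of 98 cells and a beta chain V segment in 12 and 27.

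A small group of cells carried the delta chain in place of the alpha chain. *Trdc* lies at chr14:54142851-54148868 and *Trac* at chr14:54220521-54224206, on the same strand, and joining of an alpha chain deletes the delta gene on that chromosome. Cells with at least 2 *Trdc* UMIs, a limit set after the values were seen, numbered 3 of 27 in intact tissue (11.1%, 2.35 to 29.2%) and 12 of 98 in callus (12.2%, 6.49 to 20.4%). No T cell held 2 or 3 *Trdc* UMIs. *Trac* was found in 0 of the 3 and 1 of the 12 *Trdc* cells, against 22 of 24 and 72 of 86 of the other T cells. A gamma chain constant gene (*Tcrg-C1*, *Tcrg-C2* or *Tcrg-C4*) was found in 3 of 3 and 11 of 12, against 3 of 24 and 17 of 86. The 1 callus *Trdc* cell with *Trac* was the one without a gamma chain UMI, and it carried 4 UMIs of each together with *Cd8a* and *Cd8b1*. Since a beta chain UMI satisfied the rule, all *Trdc* cells entered through *Trbc1*, *Trbc2* or, for that cell, also *Trac*. Gamma delta cells without a beta chain UMI would have been left out.

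**Figure D2:**
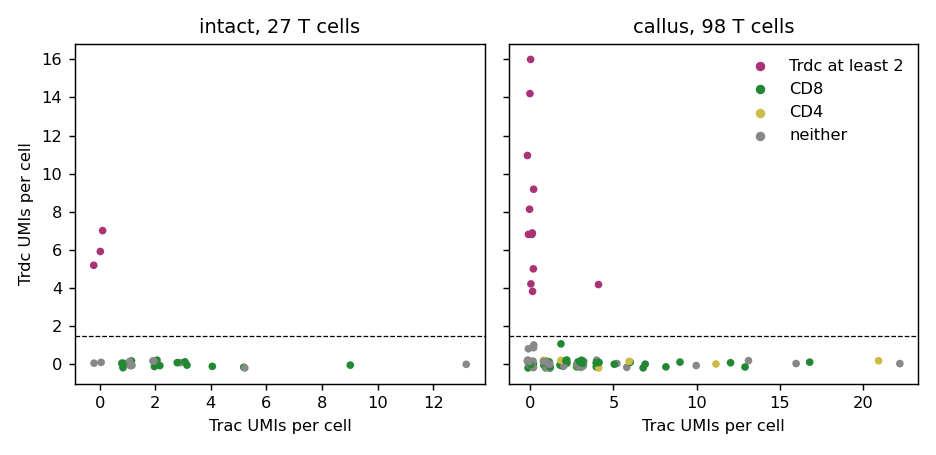
*Trac* UMIs (x axis) against *Trdc* UMIs (y axis) in each T cell of the intact (left) and callus (right) library, with small random offsets to separate points. Points are colored by class, and the dashed line separates cells with at least 2 *Trdc* UMIs from the rest. The 15 cells above the line sit at 0 *Trac* UMIs except for 1 callus cell at 4.

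*Trdc* cells held more gamma chain transcripts than other T cells in both libraries, and more of *Cxcr6* and *Klrc2*. Of 3668 genes, 30 were at least 2-fold higher in them in both libraries (0.818%) and 111 at least 2-fold lower (3.03%). *Tcrg-C4* was at 188 against 8.08 CPM in intact and 203.7 against 17.7 CPM in callus T cells, and *Tcrg-C2* at 188 against 32.3 and 132 against 24.8 CPM. Each of these gave 3 UMIs in intact *Trdc* cells. *Cxcr6*, a chemokine receptor of tissue-resident lymphocytes, was at 313 against 48.5 and 299.6 against 38.9 CPM. Of its 5 intact and 25 callus UMIs in *Trdc* cells, 80% and 48% came from 1 cell of each library. *Klrc2*, an NK receptor, was at 376 against 48.5 and 264 against 69.0 CPM, with all intact UMIs of *Trdc* cells in 1 cell. The other leading genes were *Klra5*, *Spry2*, *Serpinb6b*, *Trgv2*, *Socs3* and *Camp*. In callus 98.2% of the *Camp* UMIs of *Trdc* cells came from 1 cell. In intact tissue all 16 *Klra5* UMIs of *Trdc* cells came from 1 cell, as did all 5 *Spry2* UMIs.

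Several genes of circulating naive cells were low in *Trdc* cells. *Ccr7* gave 0 UMIs in the 3 intact and 2 UMIs in the 12 callus *Trdc* cells, against 54 and 119 UMIs (436 and 210.7 CPM) in the other T cells. *Dapl1*, a gene of naive CD8 cells, was at 0 UMIs in *Trdc* cells of both libraries, against 194 and 76.1 CPM. *Lef1*, a transcription factor of naive T cells, had log2 ratios of -1.13 and -1.33. Of the naive and recirculation list, 3 of 11 genes were lower and 0 higher in both libraries. With 3 intact cells these levels rest on few transcripts.

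CD8 transcripts were detected in more T cells than *Cd4* in both libraries. These are counts of cells with a UMI, and a cell without one may still belong to the class. *Cd8a* or *Cd8b1* was found in 13 of 27 intact T cells (48.1%, 28.7 to 68.1%) and 44 of 98 callus T cells (44.9%, 34.8 to 55.3%). *Cd4* was found in 0 of 27 intact T cells, which by the limit of 3 counts allows up to 11.1% of cells with a *Cd4* UMI, and in 11 of 98 callus T cells (11.2%, 5.74 to 19.2%). This limits detection and not the number of CD4 cells. No cell carried both, and 14 intact and 43 callus T cells carried neither. The share with *Cd4* in callus lay within the two-sided interval of 0 of 27 cells, so a difference in detection between libraries was not detectable at this depth.

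**Figure D3:**
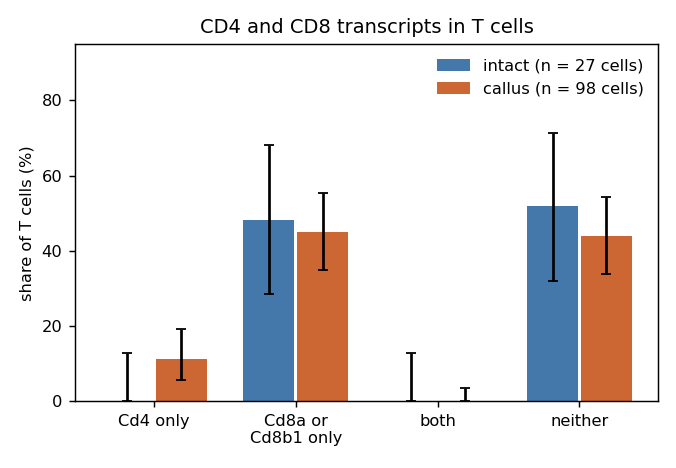
Share of T cells (y axis, percent) that carried *Cd4* alone, *Cd8a* or *Cd8b1* alone, both or neither, in intact (blue, 27 cells) and callus (orange, 98 cells) tissue, with exact binomial 95% two-sided intervals, whose bar for 0 of 27 cells ends above the limit of 3 counts. The CD8 shares of 48.1 and 44.9% overlap, and *Cd4* was seen in callus cells only, at 11.2%.

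The calls rest on few molecules for *Cd4* and more for *Cd8b1*. *Cd4* gave 18 UMIs in 11 callus cells, and 4 of 98 cells held at least 2. *Cd8b1* gave 74 UMIs in intact and 211 in callus T cells, and *Cd8a* 22 and 116. *Cd8a* and *Cd8b1* were found together in 10 intact and 33 callus cells, *Cd8a* alone in 0 and 5 and *Cd8b1* alone in 3 and 6. B cells should lack both proteins. Of 281 intact and 731 callus B cells, 2 and 8 carried *Cd4* and 0 and 1 a CD8 gene, at median depths of 2909 and 3694 UMIs. With T cells thinned to 3000 UMIs, 24 intact and 92 callus cells remained, of which 13 and 38 carried a CD8 gene and 0 and 9 *Cd4*. *Cd8* genes were found in 0 of 3 intact and 2 of 12 callus *Trdc* cells, and *Cd4* in none of them. 1 of these 2 callus cells, with 8 *Trdc* UMIs and 1 *Cd8a* UMI, also held 2261 UMIs of neutrophil list genes, as described below.

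In callus, all 3 cytotoxic granule genes with enough UMIs were higher in CD8 cells. All 4 regulatory T cell genes with enough UMIs were higher in CD4 cells. *Gzma* and *Ctsw* passed the UMI minimum through CD8 cells alone (80 and 66 UMIs, against 0 in CD4 cells), so these list counts are a description. Under stricter limits on other types' transcripts, *Ikzf2* was the only regulatory gene left with enough UMIs, and its difference was lost, as given below. The effector and memory list was mixed, with 5 of 13 genes higher and 3 lower in CD8 cells. No intact T cell carried *Cd4*, so the comparison exists in 1 library, between 44 and 11 cells. Among the 3 cytotoxic granule genes, *Gzma* rests on 80 UMIs of 2 CD8 cells. Of 1798 genes, 99 were at least 2-fold higher in CD8 cells (5.51%) and 130 at least 2-fold lower (7.23%). Leaving out T cells that held at least 2 B cell or stromal or 50 neutrophil list UMIs left 29 CD8 and 6 CD4 cells. Then 25 of the 99 and 5 of the 130 were still past 2-fold among genes with enough UMIs. Fewer genes had enough UMIs there, of which 133 were higher (13.6%) and 41 lower (4.19%) in CD8 cells. *Ccl5* was found in 25 of 44 CD8 cells at 3570 CPM (3360 to 3789) and in 0 of 11 CD4 cells, which allows up to 41.6 CPM. *Klrd1*, an NK receptor chain, was at 255 CPM and *Ctsw*, a protease of killer cells, at 219 CPM in CD8 cells, and both were at 0 UMIs in CD4 cells. *Nkg7*, a protein of cytotoxic granules, was found in 39 of 44 CD8 cells and 1 of 11 CD4 cells (805 against 236 CPM). *Ly6c2*, a surface protein of memory CD8 cells, was at 659 against 13.9 CPM and *Ctla2a*, a protease inhibitor, at 394 against 13.9 CPM. *Ccl4*, a chemokine, gave 198 UMIs in 8 CD8 cells and 0 in CD4 cells. Among genes with too few UMIs to be compared, the inhibitory receptor *Klrg1* gave 22 UMIs in CD4 and 2 in CD8 cells, and the granule protease *Gzmb* 6 and 17 UMIs (83.2 and 56.3 CPM). The effector genes lower in CD8 cells were *S100a4*, *S100a6* and *Ccr2*.

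On the CD4 side, all 4 regulatory T cell genes with enough UMIs were higher. *Ctla4* was at 666 CPM in CD4 cells (491 to 883), in 8 of 11 cells, against 62.9 CPM in CD8 cells (37.9 to 98.2), in 8 of 44. *Ikzf2*, which encodes the factor Helios, was at 679.8 against 192 CPM, *Capg*, an actin-capping protein, at 472 against 49.7 CPM and *Tnfrsf18*, which encodes GITR, at 291 against 46.4 CPM. Of the *Ikzf2* UMIs of CD4 cells, 53.1% came from 1 cell. Among the 29 CD8 and 6 CD4 cells left under the stricter limits, *Ikzf2* was at 164 and 165 CPM. *Ctla4*, *Capg* and *Tnfrsf18* had too few UMIs to be compared, with 4, 2 and 9 in CD4 cells. Their levels in CD4 against CD8 cells were 165 against 58.1, 82.5 against 31.7 and 371 against 42.3 CPM. *Slc4a7*, *Trp53inp1*, *Ly6a* and *Cited2* were also among the 10 lowest CD8 over CD4 ratios, with log2 ratios from -2.33 to -2.18. The cell cycle genes *Mki67*, *Ccnb2* and *Aspm* completed them, and 2 of the 11 CD4 cells, with 42 and 47 *Mki67* UMIs, held all of that gene's UMIs in CD4 cells. These 2 cells held 9 and 5 B cell list UMIs, of 16788 and 14300 UMIs in all, and the stricter limits left both out. Under those limits *Mki67*, *Ccnb2*, *Aspm* and *Cited2* turned to log2 ratios of 4.22, 2.06, 2.39 and 0.22. 4 of the 10 highest ratios were the neutrophil genes *Camp*, *S100a9*, *Ngp* and *S100a8*, of which 1 CD8 cell held at least 93.7% of the UMIs. Without that cell, *S100a9* and *S100a8* had log2 ratios of -0.21 and -0.16.

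Set against all T cells without a CD8 UMI, CD8 cells could be compared in both libraries (13 against 14 intact and 44 against 54 callus cells). This comparison was added after the data were seen. 4 of 3667 genes were at least 2-fold higher in CD8 cells in both libraries (0.109%), and 59 at least 2-fold lower (1.61%). The 4 were *Dapl1* (292 against 31.0 CPM in intact and 129 against 11.5 CPM in callus), *Gm8369* (784 against 233 and 368 against 153 CPM), *Ifi214*, an interferon-inducible gene, and *Phf20*, a chromatin reader. *Ccl5* did not separate these classes, since it was found in 8 of 13 intact and 25 of 44 callus CD8 cells, and in 7 of 14 and 28 of 54 of the remaining T cells.

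The genes lower in CD8 cells included those of regulatory, gamma delta and NK lists. *Tyrobp* and *Fcer1g*, signalling adaptors of NK receptors, were at 0 against 326 CPM and 26.6 against 899 CPM in intact tissue, and at 59.6 against 566 CPM and 89.4 against 702 CPM in callus. All 5 regulatory genes with enough UMIs were lower in both libraries, among them *Ctla4* (log2 ratios -2.19 and -2.48), *Tnfrsf18* (-2.39 and -1.48) and *Tnfrsf4*, which encodes OX40 and gave 0 UMIs in intact CD8 cells and 2 in callus CD8 cells. All 3 gamma delta genes and 5 of 6 NK genes were lower as well. *Maf*, a transcription factor of helper and regulatory cells, had log2 ratios of -1.78 and -2.54, and *Spry2*, *Anxa1*, *Klra5* and *Tmem64* completed the 10 lowest with *Trdc*. Genes of the naive list had medians of 0.62 and 0.86, beside -0.09 and -0.13 over all genes, with 1 of 11 past 2-fold in both libraries.

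*Foxp3*, the defining factor of regulatory T cells, was found in 2 intact and 8 callus T cells. All 10 carried *Ctla4* (2 to 20 UMIs) and *Ikzf2* (1 to 26 UMIs), and none carried *Cd8a* or *Cd8b1*. *Cd4* was found in 3 of the 8 callus cells and in 0 of the 2 intact cells. The group was singled out after its values were seen. The intact cell with 3 *Foxp3* UMIs held 108 UMIs of B cell list genes, and the callus cell of 11265 UMIs held 4211 UMIs of neutrophil list genes, described below.

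*Ccr7* and *Ccl5*, which mark circulating naive and effector cells, split the T cells in part. *Ccl5* without *Ccr7* was found in 9 of 27 intact and 43 of 98 callus T cells, *Ccr7* without *Ccl5* in 7 and 21, both in 6 and 10 and neither in 5 and 24. *Ccl5* was thus found in 15 of 27 and 53 of 98 T cells. Its summed level was 4559 CPM in intact (4212 to 4927) and 4135 CPM in callus T cells (3980.3 to 4295), against 12512 and 5435 CPM in NK cells. *Ccr7* was found in 13 of 27 intact and 31 of 98 callus T cells. Its level was 386 CPM in intact (290.3 to 504) and 187 CPM in callus T cells (155 to 223).

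Before callus and intact T cells were compared, 4 T cells were seen to hold many transcripts of another cell type. In callus, 2 T cells held 4211 and 2261 UMIs of the 10 neutrophil genes, 96.6% of all such UMIs in callus T cells, while the next highest held 11. A further callus T cell, the deepest with 26851 UMIs, held 541 UMIs of *Elane*, *Mpo* and *Prtn3*, granule enzymes of neutrophil precursors, against at most 2 in any other T cell. In intact tissue, 1 T cell held 108 of the 125 UMIs of the B cell list, almost all of them *Cd74*, the chain that guides MHC class II proteins. These 4 cells held 12 to 26 UMIs of the receptor signalling list. Scrublet, run on each library, marked none of the T cells as a doublet, and it marked 3 of 1207 and 4 of 3295 cells in all, so it cannot be taken to have found doublets here. 1 of the 4 cells carried CD8 and the other 3 neither gene. The CD8 cell, with 2261 neutrophil list UMIs, was also 1 of the 12 callus *Trdc* cells. The comparison of *Trdc* cells was not run without it. The comparison of callus with intact T cells is therefore given with and without these 4 cells, a choice made after the data were seen.

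**Figure D4:**
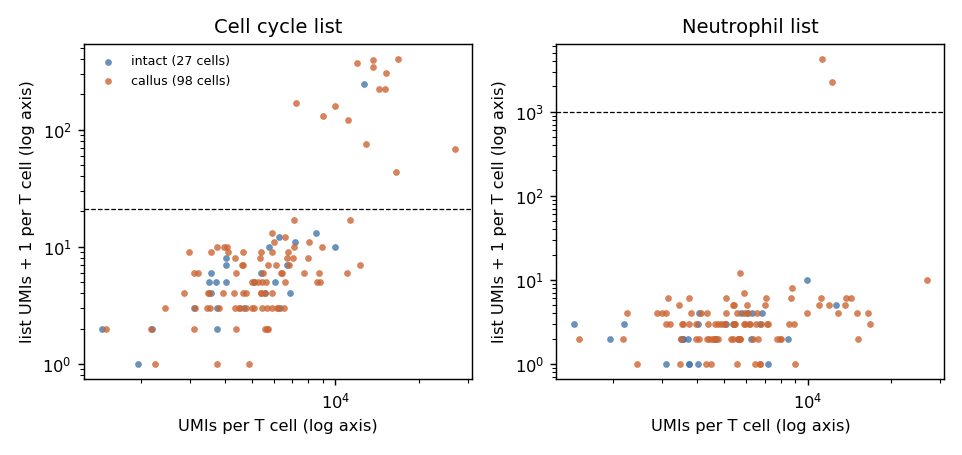
UMIs of the cell cycle list (left) and of the neutrophil list (right), plus 1, in each T cell against its total UMIs, all on log axes, for intact (blue) and callus (orange) T cells. Dashed lines mark 20 and 1000 list UMIs; 1 intact and 14 callus cells lie at or above the first, and 2 callus cells above the second.

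Of 14 cell cycle genes, 6 were at least 2-fold higher in callus than in intact T cells and 0 lower, and no receptor signalling gene was past 2-fold. 5 of the 6 were also past 2-fold in the other cells of the callus library. The summed effector and memory list was at 8917 CPM in intact (8429 to 9426) and 10196 CPM in callus T cells (9951 to 10445). With all T cells, 172 of 3669 genes were at least 2-fold higher in callus (4.69%) and 46 at least 2-fold lower (1.25%). Genes entered by their UMIs in both libraries together, and callus T cells held more UMIs (648311 against 139732). A gene seen in intact T cells alone thus needed a higher CPM to enter, which favors genes higher in callus. The 9 highest were *S100a9*, *S100a8*, *Camp*, *Elane*, *Mpo*, *Prtn3*, *Ngp*, *Ltf* and *Chil3*, all genes of neutrophils or their precursors, and 1 cell held from 60.7 to 97.4% of the callus UMIs of each. The 2 lowest, *Cd74* and *H2-Ab1*, are MHC class II genes that came from the 1 intact cell. Without the 4 cells, 165 of 3426 genes were higher (4.82%) and 39 lower (1.14%). 129 of the higher and 34 of the lower genes were the same with and without these cells. Under the stricter limits given above for the CD8 and CD4 cells, 61 of the 172 higher and 17 of the 46 lower genes were still called. Fewer genes had enough UMIs under those limits, of which 127 were higher (5.59%) and 29 lower (1.28%) in callus.

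Without the 4 cells, the leading genes included a galectin, a chemokine and genes of dividing cells. *Lgals3*, which encodes galectin 3, was at 161 CPM in 21 callus T cells and 7.70 CPM in 1 intact T cell (log2 ratio 2.70). *Ccl4*, a chemokine, was at 617 CPM in 20 callus and 108 CPM in 5 intact cells (log2 ratio 2.32). *Mki67*, a marker of dividing cells, was at 433 against 77.0 CPM, found in 15 and 2 cells, and *Hist1h1b*, a linker histone, at 853 against 208 CPM. *Kcnq1ot1*, an imprinted noncoding RNA, was at 132 against 15.4 CPM. *Ankhd1*, *Glrx*, *Kif23*, *Nlrc3* and *Ogfr* had 34 to 45 UMIs in callus and 0 in intact T cells, which allows up to the level of 3 UMIs there.

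The leading lower genes included a noncoding RNA that was also lower in the other cells of the callus library, and globins. *AY036118*, a noncoding RNA at chr17:39847113-39848035, was at 149 against 1664 CPM in T cells (log2 ratio -3.32), and its log2 ratio was -3.08 in the kept cells other than T cells. The globin *Hbb-bs* was at 182 against 963 CPM (-2.28), with -0.30 in other cells, and *Hba-a2*, *Hba-a1* and *Hbb-bt* had log2 ratios of -2.18, -1.62 and -1.41. UMIs of the erythroid list, which holds *Car2* and *Alas2* beside the globins, were found in 27 of 27 intact and 82 of 98 callus T cells. The source of globin transcripts in T cells was not tested. *Klra5*, *Gm14085*, *Trgv2* and *Oxr1* were also among the 10 lowest, and 27 intact *Klra5* UMIs came from 2 cells.

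**Figure D5:**
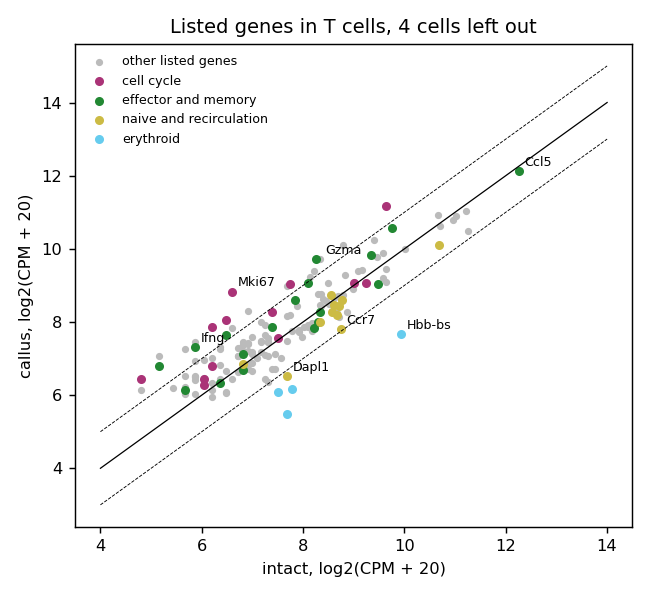
Level of each listed gene with at least 30 UMIs in intact (x axis) and callus (y axis) T cells, as log2 of CPM plus 20, with 4 cells left out. The solid line marks equal levels and the dashed lines 2-fold; cell cycle genes lie on or above the solid line apart from *Tubb5*, and globin genes lie below the lower dashed line.

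By list, and again without the 4 cells, 0 of 14 receptor signalling genes were past 2-fold in either direction (median log2 ratio 0.10, beside 0.08 over all genes). 6 of 13 cell cycle genes were higher and 0 lower (median 0.89), namely *Mki67*, *Cdk1*, *Birc5*, *Hist1h2ae*, *Ube2c* and *Hmgb2*. In other cells *Mki67*, *Ube2c*, *Birc5*, *Cdk1* and *Hmgb2* had log2 ratios of 1.86, 1.42, 1.29, 1.21 and 1.05. 4 of 18 effector and memory genes were higher and 0 lower (median 0.47), against 2 of 18 with all T cells (median 0.39), *Ifng* and *S100a4*. These were *Ifng* (139 against 38.5 CPM), the calcium-binding gene *S100a4* (821 against 285 CPM), the chemokine receptor *Ccr2* (181 against 69.3 CPM) and the adhesion receptor *Cd44* (90.3 against 15.4 CPM). The cytotoxic granule list had 2 of 7 higher, *Gzma* (819.5 against 300.5 CPM, from 11 callus and 3 intact cells) and *Klrg1*, of which *Gzma* alone was past 2-fold with all T cells. *Runx1*, a transcription factor, was at 115 against 15.4 CPM, and *Rora*, a nuclear receptor of T cells, at 132 against 30.8 CPM. *Ifi27l2a* was the single interferon response gene of 7 past 2-fold, at 1079 against 424 CPM, while its log2 ratio was -1.03 in other cells.

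In the other direction, 1 of 11 naive and recirculation genes was lower, *Dapl1* (71.9 against 184.9 CPM), and the list's median was -0.30. *Ccr7* was at 202 against 408 CPM (log2 ratio -0.95), and at -0.62 in other cells. The transcription factors *Lef1* and *Tcf7* had log2 ratios of -0.33 and -0.27. Of 19 immediate early and heat shock genes, which tissue digestion can raise, 5 were higher (*Fosb*, *Egr1*, *Dusp2*, *Zfp36* and *Rgs1*) and 0 lower, with a median of 0.30, and with all T cells 3 were (*Fosb*, *Dusp2* and *Rgs1*). In other cells *Fosb*, *Egr1* and *Zfp36* had log2 ratios of -0.50, -1.89 and -0.77, and *Rgs1* had 0.60. MHC class I, cytokine receptor and inhibitory receptor lists had 0 of 11, 0 of 12 and 0 of 3 genes past 2-fold, and the regulatory and chemokine receptor lists had 1 gene each higher, *Capg* and *Ccr2*. With all T cells no chemokine receptor was past 2-fold, and of 5 regulatory genes *Capg* was higher and *Tnfrsf4* lower.

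Cells with at least 20 UMIs of the 15 cell cycle genes, a limit set after the values were seen, were 1 of 27 intact (3.70%, 0.0937 to 19.0%) and 14 of 98 callus T cells (14.3%, 8.04 to 22.8%). The intervals overlap. With cells thinned to 3000 UMIs and a limit of 10 UMIs, the counts were 1 of 24 and 13 of 92. These callus cells were deep, with a median of 13686 UMIs against 5388 in the rest, and 12 of the 14 carried *Mki67*. They held 3001 of the 3399 cell cycle UMIs of callus T cells, and the 1 intact cell held 244 of 364. 1 of the 14 was the cell with 541 UMIs of *Elane*, *Mpo* and *Prtn3*, which held 67 cell cycle UMIs, and without the cells holding another type's transcripts the callus count was 13 of 95. By class they were 7 of 44 CD8, 2 of 11 CD4 and 5 of 43 callus cells with neither, the latter including that cell. Cells above the limit were thus found in each class of callus T cell. Without cells of at least 20 cell cycle UMIs in either library, 112 genes were higher in callus, 78 of them among the 172 found with all T cells. Fewer genes had enough UMIs there, and the shares higher were 4.03% and 4.69%.

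Transcripts of factors that act on bone were few. *Tnfsf11*, which encodes RANKL, was found in 0 of 27 intact T cells, which allows up to 11.1% of cells with a UMI but does not limit the share that express it, and in 7 of 98 callus T cells (7.14%, 2.92 to 14.2%). *Tnf* was found in 0 of 27 and 14 of 98 (14.3%, 8.04 to 22.8%), and in 0 of 24 and 5 of 92 after thinning. Without the 4 cells, *Tnf* was found in 12, *Tnfsf11* in 7 and *Ifng* in 25 callus T cells. *Ifng* was found in 3 of 27 and 26 of 98, at 35.8 CPM (11.6 to 83.5) and 131 CPM (105 to 162). The intervals of the *Ifng* share of cells overlapped (2.35 to 29.2% and 18.1 to 36.4%), and in NK cells its level was 429 and 227 CPM. *Il17a*, *Il17f*, *Il22*, *Il21*, *Il13*, *Il6*, *Wnt10b* and *Tnfrsf11b*, which encodes the RANKL decoy osteoprotegerin, had 0 UMIs in all 125 cells. For callus this allows up to 4.63 CPM per gene, and for intact tissue up to 21.5 CPM. *Tgfb1* was found in 12 of 27 and 43 of 98 cells, at 122 and 105 CPM.

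Of the markers of other cell types, globins were carried by most T cells, at a summed erythroid level of 1459.9 CPM in intact (1266 to 1675) and 327 CPM in callus T cells (284 to 374). The 10 stromal genes gave 2 UMIs in intact and 28 UMIs in callus T cells, with *Pdgfra* and *Lum* at 0 in both. Muscle genes were found in 16 of 27 and 91 of 98 T cells at no more than 5 and 8 UMIs per cell, at summed levels of 222 and 392 CPM. The B cell genes *Ms4a1*, *Pax5* and *Vpreb3* were at 0 UMIs, and *Ighm* was found in 11 intact and 45 callus T cells at 122 and 173 CPM. The 10 macrophage and dendritic cell genes gave 8 UMIs in 3 intact and 48 UMIs in 19 callus T cells, most of *Itgax* (6 and 22 UMIs) and *Siglech* (0 and 15), with *Csf1r*, *C1qa* and *Adgre1* at 0. Of the thymocyte list, *Rag1*, *Rag2*, *Dntt* and *Ptcra* were at 0 UMIs in both libraries.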

How the data were processed

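Cells sorted for tdTomato from intact tissue and callus were profiled with the 10x 3′ kit V3. The authors deposited raw UMI counts per gene and barcode, made with Cell Ranger 6.0.0 per the file headers and mm10 per the labels, with no barcode under 502 UMIs. Raw counts are not normalized, so depth sets their precision. Cells were kept as stated above, and UMIs were summed over cells of a class and given as CPM. Ratios are log2 of CPM plus 20, over genes with at least 30 UMIs, and "higher" or "lower" means at least 2-fold, in both libraries where both were compared. With 1 library per group no model was fitted. Shares have Clopper-Pearson and CPM values Poisson 95% intervals, and 0 counts are given the limit of 3. For thinned shares, 3000 UMIs were drawn from each cell, a depth near percentile 10 of T cells, and shallower cells were left out.

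Genes were named when carried by at least 5 cells: the 10 highest and 10 lowest past 2-fold between callus and intact and between classes (by the smaller ratio of both libraries), the 20 highest of T cells over other cells, and genes of 27 lists. The members and lists were chosen with earlier results of these data known. The *Trdc* class, *Foxp3* cells, cell cycle limit and alternatives without 4 cells, without cycling cells and with CD8 against all other T cells were chosen after seeing the data. CD8 over CD4 could be computed in callus only. Doublets were not removed; Scrublet (scanpy 1.11.5, seed 0) was an alternative, as were other cell filters, CD3 limits, added CPM, UMI minimums and means over cells. The comparison was also run on simulated data, whose outcome is not given here. Positions and transcripts are from GENCODE M21 (GRCm38), which holds 99.8% of the gene identifiers. Python 3.11.15, numpy 2.4.6, scipy 1.17.1 and pandas 2.3.3 were used. Some genes that the rule names are not reported here.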

Additional observations from a re-analysis of the deposited data

Results flagged for a closer look

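Outside the kept cells, which no comparison used, 1 intact and 3 callus barcodes also met the CD3, receptor and *Cd79a* limits of the T cell rule. These values were noted because they are signal in data that the report left aside. All 4 barcodes exceeded 10% mitochondrial UMIs, and the intact one also had fewer than 500 genes. They were among 665 intact and 692 callus barcodes that the filter removed, and whether they were damaged T cells was not tested.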

How the results depend on the processing

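No paired analysis was possible because each group is 1 library, and no replicate could be left out for the same reason. Leaving out T cells with other types' transcripts (at least 2 B cell or stromal or 50 neutrophil list UMIs) gave a callus T cell share of 1.93%, and 29 genes lower in callus, 41 lower in CD8 than CD4 cells and 44 lower in T than other cells. Of the genes reported, it shared 61 of 172 higher in callus. It also shared 25 of 99 higher and 5 of 130 lower in CD8 than CD4 cells, so most calls of these comparisons were not shared. With fewer cells, fewer genes reached the UMI minimum, and a gene below it counts as not shared. Among genes that reached it, 127 were higher in callus (5.59%). In CD8 over CD4 cells 133 were higher (13.6%) and 41 lower (4.19%). Leaving out these T cells turned the callus over intact log2 ratios of *Ngp* (-0.69), *Cd74* (0.65) and *H2-Ab1* (0.36). The CD8 over CD4 ratios of *S100a9* (-0.98), *S100a8* (-0.92), *Mki67* (4.22), *Cited2* (0.22), *Ccnb2* (2.06) and *Aspm* (2.39) turned too. The limits left out both CD4 cells that held *Mki67* UMIs. Without the 4 cells described, *Ngp* (-0.82), *Cd74* (0.95), *H2-Ab1* (0.74), *S100a9* (-0.21) and *S100a8* (-0.16) turned. From 2 UMIs, the callus CD4 share was 4.08%. With 5 CPM added, 292 and 80 genes were higher and lower in callus, and with 50 CPM 63 and 18, with 84 lower in CD8 cells and 187 higher in T than other cells. From 10 UMIs, 345 and 134 genes were higher and lower in callus, 396 and 389 in CD8 than CD4 cells, and 173 lower in T than other cells. From 100 UMIs these were 48 and 11, 22 and 25, and 172 and 26 for T over other cells. Means over cells gave 86 genes lower in CD8 cells. Against all other T cells, CD8 cells had 4 genes higher and 59 lower, and the ratios of *Ccl5* (-0.37), *Camp* (-0.093), *S100a9* (-0.53) and *S100a8* (-0.62) turned. Without cycling cells 112 genes were higher in callus (4.03%, beside 4.69% with all T cells). These counts move with the added CPM and the UMI minimum by construction, and the causes of the other moves were not tested. Of the ratios of single genes over all alternatives, 655 moved by less than the counting error of the reported ratio, 87 moved by more with the same sign, and 18 turned, as given above. Of shares and counts of genes, 94 stayed within their interval or within 1.5 times, and 26 moved beyond that.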
